A study of Homo sapiens with 7 samples.

Results

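The genes described here are 10 genes of the unfolded protein response (UPR) and of protein folding in the endoplasmic reticulum (ER), namely HSPA5, HSP90B1, DNAJB9, DNAJB11, DNAJC3, PDIA4, SDF2L1, HERPUD1, XBP1 and UGGT1. They were chosen by symbol, and all 10 were among the 21305 genes of the expression table and among the 15420 that entered the tests. RNA was sequenced from 501Mel, a human melanoma cell line, in 7 libraries. The control, shlacZ, had 3 libraries from cells whose hairpin is directed at lacZ, a gene of bacteria. A further 2 came from cells with the hairpin sh4 and 2 from cells with the hairpin sh8. Both sh4 and sh8 target the long non-coding RNA GRASLND, and all 3 groups were treated with doxycycline to switch the hairpin on. Per the methods of the study, the hairpins were carried by a lentivirus and the cells were pools kept by puromycin selection, so a group is a pool and not a clone. The labels do not say whether replicates came from separate cultures, so p-values measure the spread between these libraries, which may be technical.

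The ER folds secreted and membrane proteins. When unfolded proteins build up, the sensors IRE1 (the gene ERN1), PERK (EIF2AK3) and ATF6 start the UPR, which raises chaperones, slows translation and sends misfolded proteins to degradation. IRE1 acts by splicing the XBP1 transcript, PERK by phosphorylating eIF2alpha and so favouring the translation of ATF4, and ATF6 by being cut by the proteases MBTPS1 and MBTPS2. HSPA5, also known as BiP or GRP78, is the main Hsp70 chaperone of the ER and holds the sensors inactive, and a rise of HSPA5 is a customary readout of the response. Splicing of XBP1 and phosphorylation were not measured here, since the table gives 1 value per gene.

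The known regulation of these genes runs through short promoter motifs, and the sequences that carry them are shown for that reason. RefSeq promoters (GRCh38.p14, 250 bases before to 50 after the start of the gene) were found for all 10 genes, as 12 windows among 35116. The ER stress response element (ERSE), searched as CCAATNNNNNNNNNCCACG on both strands, was in the promoters of HSPA5, HSP90B1 and XBP1 and in 27 of all 35116 windows (0.0769%). Its variant ERSE-II, searched as ATTGGNCCACG, was in those of HERPUD1 and SDF2L1 and in 19 windows (0.0541%). The 200 bases before the start are printed 5′ to 3′ in the direction of the gene, with ERSE, ERSE-II and, in HERPUD1 alone, another motif described below in capitals.
HSPA5: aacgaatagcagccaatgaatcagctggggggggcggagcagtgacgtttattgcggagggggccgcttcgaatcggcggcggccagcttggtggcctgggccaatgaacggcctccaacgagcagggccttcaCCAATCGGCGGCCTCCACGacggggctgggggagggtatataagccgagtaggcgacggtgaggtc
HSP90B1: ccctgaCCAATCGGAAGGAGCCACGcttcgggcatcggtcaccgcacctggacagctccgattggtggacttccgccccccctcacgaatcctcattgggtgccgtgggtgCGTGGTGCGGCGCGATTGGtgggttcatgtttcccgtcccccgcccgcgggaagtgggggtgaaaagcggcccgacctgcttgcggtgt
XBP1: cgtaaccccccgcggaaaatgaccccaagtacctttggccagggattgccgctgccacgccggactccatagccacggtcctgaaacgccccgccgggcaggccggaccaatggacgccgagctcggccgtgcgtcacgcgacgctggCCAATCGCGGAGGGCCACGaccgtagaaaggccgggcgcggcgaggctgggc
SDF2L1: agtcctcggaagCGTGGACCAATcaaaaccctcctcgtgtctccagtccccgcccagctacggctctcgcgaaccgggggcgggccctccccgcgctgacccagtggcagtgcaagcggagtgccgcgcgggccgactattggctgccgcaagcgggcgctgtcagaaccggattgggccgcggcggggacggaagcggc
HERPUD1: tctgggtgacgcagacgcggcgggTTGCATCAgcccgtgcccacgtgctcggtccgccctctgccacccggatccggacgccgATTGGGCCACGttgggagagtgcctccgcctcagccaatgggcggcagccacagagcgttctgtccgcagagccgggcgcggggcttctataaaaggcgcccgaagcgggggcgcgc
The stretch shown for HSPA5 is on the minus strand at chr9:125241344-125241543, HSP90B1 on the plus strand at chr12:103930210-103930409, XBP1 on the minus strand at chr22:28800570-28800769, SDF2L1 on the plus strand at chr22:21642102-21642301 and HERPUD1 on the plus strand at chr16:56931942-56932141. These stretches are placed by RefSeq starts, whereas the gene bounds given below are those of GENCODE. The starts differ for HSPA5, HSP90B1 and XBP1, so their stretches lie partly or, in HSP90B1, wholly inside those bounds. In HSP90B1 the ERSE was present at 2 places, once on each strand. The further motif in HERPUD1 is the amino acid response element bound by ATF4 and its partners (searched as TGATGCAA), which was in 304 windows (0.866%) and, of the 10 genes, in HERPUD1 only. HERPUD1 held the only window among all 35116 with both ERSE-II and this element. The UPR element TGACGTGG, whose opposite strand shares its first 5 letters CCACG with the end of ERSE, was in 256 windows (0.729%) and in none of the 10 genes. The other 5 genes (DNAJB9, DNAJB11, DNAJC3, PDIA4 and UGGT1) held none of the 4 motifs in these letters and this window, where only exact matches were counted.

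The target of the hairpins was lower in the knockdown libraries. GRASLND stood at 309, 330 and 290 normalized read counts in the shlacZ libraries, at 175 and 131 in the sh4 libraries and at 227 and 163 in the sh8 libraries. Its log2 fold change was -1.02 ± 0.21 (SE) in sh4 (adjusted p = 0.00662 by limma with Benjamini-Hochberg adjustment) and -0.68 ± 0.21 in sh8 (adjusted p = 0.110). The call in sh4 was lost without sh4 replicate 2 (adjusted p = 0.0774). Of the 6 melanocyte markers, none was at 0 in any library, whereas COL1A1 was the only one of 8 markers of other cell types in the table, at 5.24 to 16.4 normalized counts. The reads assigned to the genes of the expression table came to 13337317 to 22855232 per library, which is less than the sequencing depth given by the study.

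In the control cells the 10 genes spanned a wide range. The level per kilobase (normalized read count divided by the length of the canonical transcript) was highest for HSP90B1, the Hsp90 chaperone of the ER also known as GRP94, at 7174 ± 1149 (SD, n = 3). DNAJB11 at 1380 ± 259, HSPA5 at 1316 ± 439 and PDIA4 at 1037 ± 248 followed and did not differ beyond their spread. XBP1 at 444 ± 191 and SDF2L1 at 342 ± 158 overlapped too. DNAJC3 at 204 ± 15.9 and HERPUD1 at 153 ± 48.4 lay within their spread of each other, as did HERPUD1 and UGGT1 at 130 ± 9.61, and DNAJB9 was lowest at 59.2 ± 14.6. HSP90B1 stayed first and DNAJB9 last in sh4 and in sh8, while HERPUD1 took rank 8 in the control, 6 in sh4 and 7 in sh8.

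The first shlacZ library stood apart for these genes. All 10 were lower in it than in both other control libraries, at 37.3% (SDF2L1) to 90.2% (UGGT1) of the mean of the other 2, with a median of 63.3%. Over all 15420 genes tested the median was 97.4%, and 44.8% of genes were lower than in both others. The cytosolic and mitochondrial chaperones, 12 of 12 lower, had a median of 74.97%, and the 15 genes of protein entry into the ER, 15 of 15 lower, one of 78.8%, whereas the melanocyte markers had a median of 107%. Over all genes the SD of the log2 difference was 0.635 and 0.624 between the first control library and the others, 0.466 between those 2, 0.509 between the sh4 libraries and 0.543 between the sh8 libraries. Results for the 10 genes are therefore given with all 3 control libraries and, as an alternative chosen with this library's values known, without the first.

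**Figure D1:**
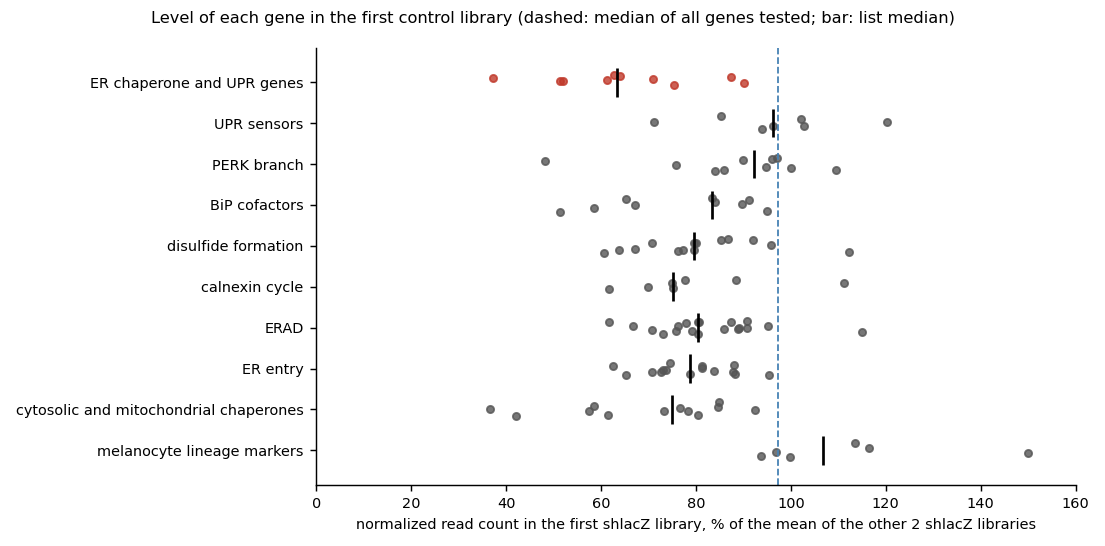
Normalized read count in the first shlacZ library as a percentage of the mean of the other 2 shlacZ libraries (horizontal axis), with 1 point per gene, 1 row per gene list, a bar at each list median and a dashed line at the median of all genes tested (97.4%). The 10 ER chaperone and UPR genes lie between 37.3% and 90.2%.

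Several abundant chaperones were lower in the knockdown libraries than in all control libraries but the first. For HSPA5 (BiP, ENSG00000044574, chromosome 9, 125234853 to 125241382) the normalized read count was 3197, 5870 and 6411 in shlacZ, 3536 and 4503 in sh4, and 4040 and 3852 in sh8. All 4 knockdown libraries lay above the first control library and below the other 2. The log2 fold change was -0.31 ± 0.26 (SE) in sh4 and -0.32 ± 0.26 in sh8 (adjusted p = 0.427 and 0.542). Without the first control library it was -0.62 ± 0.13 and -0.64 ± 0.13 (adjusted p = 0.00600 and 0.0181). Over the libraries left out in turn, the log2 fold change of HSPA5 ran from -0.62 to -0.12 in sh4 and from -0.64 to -0.14 in sh8. So the call for HSPA5 rested on whether that library was kept.

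HSP90B1 (GRP94, ENSG00000166598, chromosome 12, 103930107 to 103953931), which folds integrins and Toll-like receptors among others, was the only one of the 10 with every knockdown library below every control library. It stood at 16378, 20965 and 22530 normalized counts in shlacZ, at 13261 and 15690 in sh4 and at 14945 and 14587 in sh8. Of all 15420 genes, 11% had every knockdown library below every control library, and 10.2% had every one above. The log2 fold change of HSP90B1 was -0.46 ± 0.15 in sh4 and -0.42 ± 0.15 in sh8, which missed the threshold (adjusted p = 0.0582 and 0.180), and without the first control library it was -0.59 and -0.56 and passed it (0.00557 and 0.0225).

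DNAJB11 (ERdj3, ENSG00000090520, chromosome 3, 186567403 to 186585800), a J-domain cofactor that hands substrates to BiP, had 1776, 2559 and 2452 normalized counts in shlacZ, 1467 and 1832 in sh4, and 1379 and 1373 in sh8. Of the 4 knockdown libraries 3 lay below all controls, and the second sh4 library lay just above the first control. The fold change was -0.45 ± 0.17 on the log2 scale in sh4 and -0.70 ± 0.17 in sh8 (adjusted p = 0.0876 and 0.0608), against -0.61 and -0.86 without the first control library (0.00564 and 0.00465).

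PDIA4 (ERp72, ENSG00000155660, chromosome 7, 149003062 to 149028662) is a protein disulfide isomerase. Its counts were 2084, 3165 and 3355 in shlacZ, 1955 and 2882 in sh4, and 2139 and 2080 in sh8, so the 2 sh4 libraries spanned most of the control range. Its log2 fold change was -0.24 ± 0.22 in sh4 and -0.41 ± 0.22 in sh8 (adjusted p = 0.464 and 0.351). Without the first control library it passed in sh8 at -0.63 (0.0384) and not in sh4 at -0.46 (0.0554).

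SDF2L1 (ENSG00000128228, chromosome 22, 21642302 to 21644299), which works with BiP and DNAJB11, had the widest spread among controls, at 133, 340 and 374 normalized counts. It stood at 162 and 234 in sh4 and at 115 and 144 in sh8. The highest control value was 2.81 times the lowest. The log2 fold change was -0.40 ± 0.39 in sh4 and -0.995 ± 0.394 in sh8 (adjusted p = 0.508 and 0.215), and without the first control library -0.87 and -1.47 (0.0125 and 0.00454), the deepest value among the 10 genes in each hairpin.

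By contrast, 3 of the 10 genes rose in sh4 with all control libraries in the fit. HERPUD1 (ENSG00000051108, chromosome 16, 56932142 to 56944864), a membrane protein of ER-associated degradation (ERAD), had 307, 419 and 581 normalized counts in shlacZ, 772 and 1052 in sh4, and 563 and 959 in sh8. Only the first sh8 library fell within the control range. The log2 fold change was 1.10 ± 0.29 in sh4 (adjusted p = 0.0226) and 0.80 ± 0.29 in sh8 (adjusted p = 0.175). In sh4 the mean was 210% of the control mean.

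UGGT1 (ENSG00000136731, chromosome 2, 128091200 to 128195677) is the folding sensor of the calnexin cycle, which adds glucose back to glycoproteins that are not yet folded. It stood at 1304, 1382 and 1508 in shlacZ, at 1900 and 2471 in sh4 and at 1499 and 1640 in sh8. Both sh4 libraries lay above all controls, and the first sh8 library lay among them. Its log2 fold change was 0.63 ± 0.14 in sh4 (adjusted p = 0.0105) and 0.17 ± 0.14 in sh8 (adjusted p = 0.565), and the direct comparison of sh4 with sh8 missed the threshold (0.47 ± 0.15, adjusted p = 0.102).

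DNAJC3 (p58IPK, ENSG00000102580, chromosome 13, 95677139 to 95794988), a J-domain protein known as an inhibitor of PERK and of the RNA-activated kinase PKR, had nearly equal fold changes in both hairpins. It had 1042, 1174 and 1211 normalized counts in shlacZ, 1539 and 1835 in sh4, and 1777 and 1602 in sh8, and it was the only one of the 10 with every knockdown library above every control library. The log2 fold change was 0.56 ± 0.13 in sh4 (adjusted p = 0.0137) and 0.56 ± 0.13 in sh8, which narrowly missed the threshold (adjusted p = 0.0521) and passed it without the first control library (0.50, adjusted p = 0.0356). The difference between the hairpins was -0.01, with a 95% interval from -0.33 to 0.31.

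XBP1 and DNAJB9, both on the IRE1 branch, did not pass in any comparison, with or without the first control library. XBP1 (ENSG00000100219, chromosome 22, 28794555 to 28800597) codes for the transcription factor made after IRE1 splicing and stood at 487, 735 and 1165 in shlacZ, 622 and 731 in sh4, and 674 and 979 in sh8. The knockdown libraries all lay inside the control range. DNAJB9 (ERdj4, ENSG00000128590, chromosome 7, 108569867 to 108574850), a cofactor that represses IRE1 through BiP, stood at 102, 162 and 164 in shlacZ, 192 and 184 in sh4, and 117 and 168 in sh8. For XBP1 the 95% interval of the log2 fold change ran from -0.83 to 0.54 in sh4 and from -0.56 to 0.80 in sh8, and for DNAJB9 from -0.14 to 1.0 and from -0.57 to 0.58. Changes within these intervals were not excluded here.

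**Figure D2:**
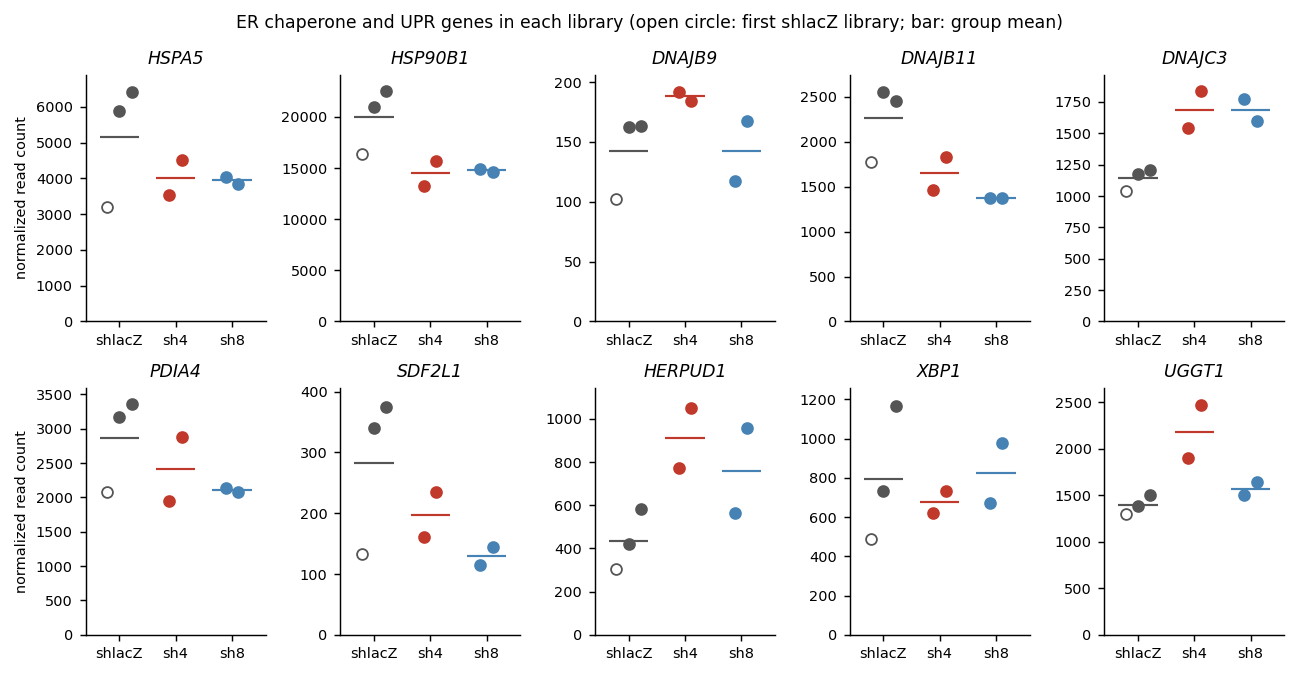
Normalized read count of each of the 10 genes (vertical axes, starting at 0) in the shlacZ (n = 3), sh4 (n = 2) and sh8 (n = 2) libraries, with 1 point per library, an open circle for the first shlacZ library and a bar at each group mean. All DNAJC3 points of the knockdown groups lie above the control points, all HSP90B1 points lie below them, and the open circle is the lowest control value in every panel.

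Counted over the 10 genes, 3 rose and 0 fell in sh4 at an adjusted p under 0.05, where 10.5% of all genes tested rose and 11.9% fell. In sh8 none passed by limma or by limma-voom on whole reads, where 1.38% of genes rose and 1.54% fell, while 3 of the 10 had an unadjusted p under 0.05 and a negative fold change (HSP90B1, DNAJB11 and SDF2L1), as had 9.69% of all genes, and 2 a positive one (DNAJC3 and HERPUD1), as had 8.85%. With both hairpins in 1 group (4 libraries) 1 rose, DNAJC3, at 0.56 ± 0.12 (adjusted p = 0.0315), against 2.55% of genes that rose and 2.06% that fell. Another scaling, by the upper quartile, moved the share of higher genes among all that passed in that comparison from 55.3% to 65.6%. None of the 10 passed between sh4 and sh8 by limma or by limma-voom (1 of 10, UGGT1, was higher in sh4 at an unadjusted p under 0.05, as were 11.3% of all genes, with 11.3% lower), where 3.67% of genes were higher and 3.33% lower in sh4. The median log2 fold change of the 10 genes was -0.20 in sh4 and -0.16 in sh8, and that of all genes tested -0.01 in each.

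Without the first control library, 3 rose (DNAJC3, HERPUD1 and UGGT1) and 4 fell (HSPA5, HSP90B1, DNAJB11 and SDF2L1) in sh4, and 1 rose (DNAJC3) and 5 fell (the same 4 and PDIA4) in sh8. In the same fits 14.4% of all genes rose and 17.2% fell in sh4, and 4.63% rose and 5.74% fell in sh8. With both hairpins together 0 rose and 4 fell, against 2.33% and 2.22% of all genes, and the medians of the 10 genes were -0.46 in sh4 and -0.39 in sh8. For each of HSPA5, HSP90B1, DNAJB11, PDIA4 and SDF2L1, 4 of 4 knockdown libraries lay below both remaining controls, as they did for 22.9% of all 15389 genes in that fit, and for DNAJC3 4 of 4 lay above them (18.5% of all genes). Without shlacZ replicate 2 instead, the medians of the 10 genes were -0.16 in sh4 and -0.05 in sh8. Without shlacZ replicate 3 they were 0.03 and -0.01. In neither case did any of the 10 fall in sh4 or sh8. Over the libraries left out in turn, log2 fold changes in sh4 ran from -0.59 to -0.33 for HSP90B1 and -0.61 to -0.29 for DNAJB11. For PDIA4 they ran from -0.52 to 0.038 and for SDF2L1 from -0.87 to -0.13. In sh8 the 4 ranges were -0.56 to -0.33, -0.86 to -0.60, -0.63 to -0.28 and -1.47 to -0.73.

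The calls in sh4 rested on its second library. Without it none of the 10 genes passed, with adjusted p = 0.125 for DNAJC3, 0.107 for UGGT1 and 0.179 for HERPUD1. HERPUD1 also missed the threshold without sh4 replicate 1 (0.0623) and without shlacZ replicate 2 (0.0535), and without the variance trend (0.0783), at log2 fold changes of 0.87 to 1.33 over the libraries left out in turn. DNAJC3 with both hairpins together missed it without shlacZ replicate 1 (0.0557), 2 (0.130) or 3 (0.102) and without sh4 replicate 1 (0.0625) or 2 (0.0704), and without the variance trend (0.0849).

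**Figure D3:**
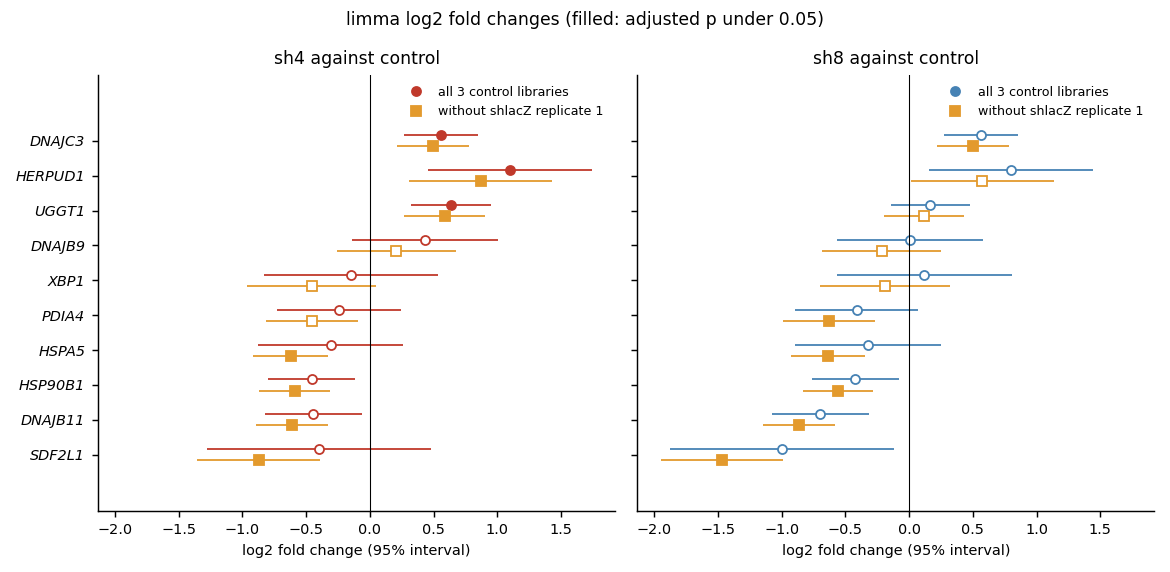
Log2 fold change of each of the 10 genes against control for sh4 (left) and sh8 (right), by limma, with its 95% interval. Circles use all 3 control libraries, squares leave out the first, and filled symbols have an adjusted p under 0.05. DNAJC3, HERPUD1 and UGGT1 stay on the positive side. For all 10 genes the squares lie further to the left than the circles, because the first control library was the lowest control for each.

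Across the 7 libraries the genes formed a pair of groups that varied alike, a description made after the values were seen. The log2 values of HSPA5, HSP90B1, DNAJB11, PDIA4 and SDF2L1 had a Pearson's r of 0.808 to 0.938 over their 10 pairs, and those of DNAJC3, HERPUD1 and UGGT1 of 0.736 to 0.845 over their 3 pairs. Between these groups r ran from -0.626 to 0.053 over 15 pairs. XBP1 was most like HSPA5 (0.698), and DNAJB9 most like HERPUD1 (0.746). The points share the group differences and the low first control library, so these values describe the 7 libraries and are not tests.

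**Figure D4:**
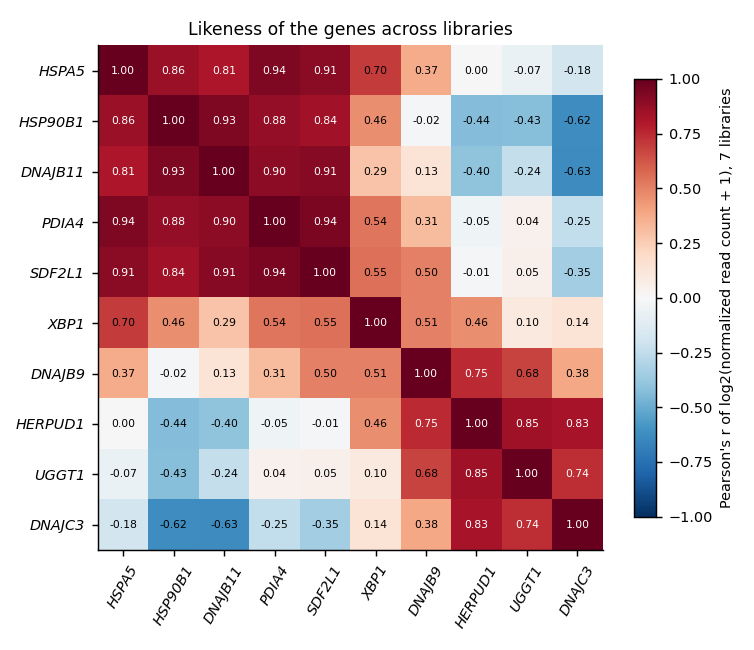
Pearson's r between the log2(normalized read count + 1) values of each pair of the 10 genes over the 7 libraries (color scale from -1 to 1, with r printed in each square). The upper left block of 5 chaperones has values of 0.808 and more, and the lower right block of HERPUD1, UGGT1 and DNAJC3 values of 0.736 and more.

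Among the 11363 other genes with a symbol and a mean of at least 50, the profile most like the mean of the 10 genes was that of MANF, an ER protein that binds BiP and is secreted under stress (r = 0.995 over 7 libraries). It stood at 414, 753 and 859 in shlacZ, 602 and 859 in sh4, and 507 and 615 in sh8. PGRMC1 (0.988), COPS4 (0.984), CD2BP2 (0.983) and ITPA (0.973) came next. For HSPA5 alone the most alike was CALR, the lectin chaperone calreticulin of the ER (0.985), with 7460, 12241 and 11936 in shlacZ, 7671 and 9646 in sh4, and 8939 and 8768 in sh8. WRAP53 (0.982), GZF1 (0.982), HRAS (0.980) and FAU (0.980) came next.

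The other genes of the pathway were read from 7 lists. Of all genes tested, 10.5% rose and 11.9% fell in sh4, and 1.38% rose and 1.54% fell in sh8. A count near these shares is no result about its list. Among the 19 measured genes of ERAD, which carries misfolded proteins out of the ER for degradation, 7 rose in sh4 (EDEM1, EDEM2, SEL1L, OS9, ERLEC1, UBE2J1 and UFD1) and 1 fell (UBE2G2), with a median log2 fold change of 0.30. OS9, a lectin that delivers misfolded glycoproteins to the ligase complex, stood at 1235, 1353 and 1368 in shlacZ, 2219 and 2472 in sh4, and 1569 and 1847 in sh8 (0.83 ± 0.12 in sh4, adjusted p = 0.00161). UBE2J1, a ubiquitin-conjugating enzyme of the ER membrane, rose by 0.78 ± 0.17 (adjusted p = 0.0110) and EDEM2, which trims mannose from such glycoproteins, by 0.72 ± 0.16 (adjusted p = 0.0102). In sh8 none of the 19 passed, with a median of 0.02, and OS9 was at 0.37 ± 0.12 (adjusted p = 0.1498). The count of 7 fell to 1 without sh4 replicate 2 and to 4 without shlacZ replicate 2, and OS9 passed without any single library (highest adjusted p = 0.0276).

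Of the 7 sensors and their processing factors, 2 rose and 1 fell in sh4. EIF2AK3 (PERK) stood at 556, 513 and 642 in shlacZ, 981 and 1290 in sh4, and 691 and 811 in sh8, at a log2 fold change of 0.99 ± 0.16 in sh4 (adjusted p = 0.00275) and 0.40 ± 0.16 in sh8 (0.235). Every knockdown library lay above every control library. The ATF6 proteases went opposite ways, with MBTPS1 at 0.61 ± 0.13 and MBTPS2 at -0.51 ± 0.12 in sh4 (adjusted p = 0.00763 and 0.0155). MBTPS1 was lost without sh4 replicate 2 (highest adjusted p = 0.0678 over the libraries left out) and MBTPS2 without sh4 replicate 1 (0.139).

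Of the 10 genes of the PERK branch, 1 rose and 2 fell in sh4, and none passed in sh8. Without the first control library 1 rose and 3 fell in sh4, and 0 rose and 3 fell in sh8. ATF4, the transcription factor of the branch, stood at 4272, 4533 and 4367 in shlacZ, 2481 and 2173 in sh4, and 3025 and 3560 in sh8. Its log2 fold change was -0.92 ± 0.12 in sh4 (adjusted p = 0.000818) and -0.42 ± 0.12 in sh8 (0.0947). Its target ASNS, asparagine synthetase, was at -1.54 ± 0.22 in sh4 (0.00139) and -0.68 ± 0.22 in sh8 (0.141). Other genes of the list went the other way. TRIB3 was at 0.82 in sh4 and 0.24 in sh8 and SESN2 at 0.67 and 0.51, and neither passed. Of the 10 genes, 3 had positive and 7 negative log2 fold changes in sh4, and 5 had positive and 5 negative ones in sh8. PPP1R15A (GADD34), which brings the phosphatase to eIF2alpha, rose by 0.78 ± 0.15 in sh4 (0.00591) and was lost without sh4 replicate 1 (0.0535). These are RNA levels, and ATF4 is regulated mainly at translation, which was not measured.

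With all control libraries, none of the 9 BiP cofactors and none of the 7 genes of the calnexin cycle passed in either hairpin, with medians of 0.01 and -0.10 in sh4. Of the 14 genes of disulfide formation 2 rose and 2 fell in sh4. One that fell was ERO1A (-0.47 ± 0.11, adjusted p = 0.0125). Without shlacZ replicate 2, 1 of the 14 still fell in sh4, and without shlacZ replicate 3 none did. The other 3 calls were ERO1B, a thiol oxidase (0.85 ± 0.25, adjusted p = 0.0323), QSOX1, another oxidase (0.60 ± 0.18, 0.0355), and PRDX4, a peroxiredoxin of the ER (-0.62 ± 0.18, 0.0366). These 3 calls were each lost without either sh4 library, with adjusted p of up to 0.219, 0.211 and 0.241, and without shlacZ replicate 2. ERO1B was also lost without sh8 replicate 2, QSOX1 without shlacZ replicate 3, and PRDX4 in all cases but that without shlacZ replicate 1 (1 of 7 libraries left out, adjusted p = 0.00327). Of the 15 genes of entry into the ER only SERP1 fell (-0.58 ± 0.15, adjusted p = 0.0197), a call lost without either sh4 library or shlacZ replicate 2 or 3 (up to 0.140). Without the first control library, 2 BiP cofactors, 3 genes of the calnexin cycle, 6 of disulfide formation and 2 of ER entry fell in sh4. Among these 4 lists only disulfide formation then had genes that rose in sh4, 2 of 14. In that fit 14.4% of all genes rose and 17.2% fell. In sh8 0, 0, 1 and 2 genes of the same lists fell and 0 rose, where 5.74% of all genes fell.

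Outside the ER, 7 of the 12 measured cytosolic and mitochondrial chaperones fell in sh4 and 0 rose, with a median log2 fold change of -0.50. Of all genes tested, 11.9% fell and 10.5% rose there. TRAP1, the mitochondrial Hsp90, stood at 1487, 1914 and 1788 in shlacZ, 837 and 979 in sh4, and 961 and 1097 in sh8, and passed in both hairpins (-0.93 ± 0.15, adjusted p = 0.00212, and -0.74 ± 0.15, adjusted p = 0.0268). HSPD1 (Hsp60) was at -0.92 ± 0.15 in sh4 (0.00275) and HSP90AA1, a cytosolic Hsp90, at -0.69 ± 0.19 (0.0253). With single libraries left out, HSPD1 passed in sh4 in 7 of 7 fits and HSP90AA1 in 4 of 7 (adjusted p of up to 0.241). The count of 7 was 11 without the first control library, 3 without shlacZ replicate 2 or 3 and 2 without sh4 replicate 1. With all control libraries, TRAP1 was the only call in sh8 among these lists, the cytosolic and mitochondrial chaperones and the cell type markers. It was lost there without shlacZ replicate 2 or 3 or either sh8 library.

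**Figure D5:**
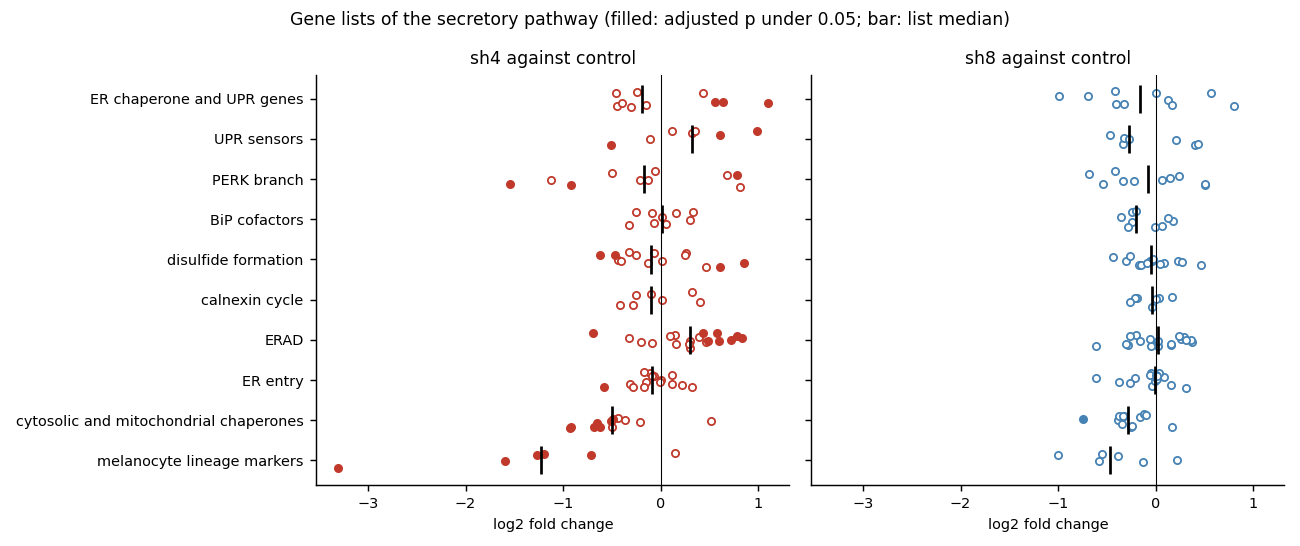
Log2 fold change against control (horizontal axes) of each measured gene in the 10 ER chaperone and UPR genes and in 9 further lists (rows), for sh4 (left) and sh8 (right). Filled points have an adjusted p under 0.05 and bars mark list medians. In sh4 the ERAD median is 0.30 and that of the cytosolic and mitochondrial chaperones -0.50.

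Of the 6 melanocyte markers, 5 had negative log2 fold changes in both hairpins. TYR had positive ones, at 0.15 in sh4 and 0.22 in sh8, and did not pass. The other 5 all passed in sh4, where 11.9% of all genes tested fell, and none of the 6 passed in sh8. The summed normalized count of the 6 ran from 89664 to 99678 in shlacZ, 40674 to 49321 in sh4 and 68653 to 74504 in sh8. DCT, a melanin enzyme, fell by 3.31 on the log2 scale in sh4 (adjusted p = 8.48e-05), MLANA by 1.59 (0.000354) and PMEL by 1.27 (0.000337). The summed count of the 10 ER genes ran from 26810 to 39751 in shlacZ, 25406 to 31416 in sh4 and 27247 to 27384 in sh8. The part of the markers in the results for these genes was not tested, and in such bulk libraries fewer cells of a kind and less RNA per cell cannot be told apart.

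The genes with the motifs shown above did not move as a group. Of the 5 of the 10 genes that held ERSE or ERSE-II, HERPUD1 rose in sh4, XBP1 stood at -0.15, and HSPA5, HSP90B1 and SDF2L1 passed in sh4, as lower, without the first control library and not with all 3, on the scaling of the authors. Over all promoters, 15 tested genes held ERSE, of which 2 rose and 1 fell in sh4, and 14 held ERSE-II, of which 1 rose and 4 fell, against 10.5% and 11.9% of all genes. In sh8 none of these passed. Among the ERSE genes of the other lists, ERO1B rose and SERP1 fell in sh4, while CALR was at -0.26, CANX at -0.42, PDIA6 at -0.44 and CRELD2 at -0.09 and did not pass. Of the 5 genes without a motif, DNAJC3 and UGGT1 rose in sh4.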

How the data were processed

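RNA was extracted with TRIzol, ribosomal RNA was removed, and stranded libraries were sequenced as read pairs. Per the methods of the study, reads were trimmed with Cutadapt, aligned to hg38 with STAR, quantified with Salmon and passed to DESeq2, with versions not given in the sources used here. The authors deposited normalized counts, scaled by 1 size factor per library and written with decimal commas. Divided by what 1 read is worth in its library, 100% of values came out within 0.01 of a whole number, which gave whole reads and their sum per library. Such scaling removes a change shared by most genes. Of 21305 genes, 15420 had a mean of at least 10 and were fitted with limma 3.58.1 in R 4.3.3, with its variance trend, on log2 values after adding 1 to the normalized count, which understates changes of low genes. A gene passed at a Benjamini-Hochberg adjusted p under 0.05 over all genes. Both hairpins together were fitted in 2 levels, after the study, and the other comparisons in 3 groups that share 1 estimate of the spread. The fit was tested on simulated data with known fold changes, the same dispersion for every gene and no outlying library. That test therefore does not cover a library such as the first control. Coordinates and transcript lengths came from GENCODE release 44 on hg38, which held 99.9% of the identifiers. The genes, lists and alternatives were chosen with earlier results of these data known, so no list is independent evidence. Genes named from other lists were the up to 3 of each list with the largest change among those that passed against control, and genes alike were the 5 with the highest r. CALR, CANX, PDIA6 and CRELD2 were named in addition for their motif, after their values were seen. TRIB3, SESN2 and ERO1A were also added after their values were seen, beside the genes named by that rule. Planned negative binomial tests were not run, because the table, with its decimal commas, was not declared as counts. The recovered whole reads would have allowed them and were used for limma-voom. Alternatives are given in the closing section.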

Additional observations from a re-analysis of the deposited data

Results flagged for a closer look

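Between the 2 hairpins, none of the 10 ER genes passed the direct test, but 7 other genes named in the report did, which is why they are given here. ATF4 was lower in sh4 than in sh8 by -0.50 on the log2 scale (limma, adjusted p = 0.0499) and PPP1R15A higher by 0.63 (adjusted p = 0.0497). Both calls lie at the threshold and were lost without any single sh4 or sh8 library, without shlacZ replicate 2 or 3, and with a pseudocount of 0.5. EDEM2 was higher in sh4 by 0.92 (adjusted p = 0.0129), as both sh4 libraries (675 and 761 normalized counts) lay above the controls (394 to 484) and both sh8 libraries (341 and 420) below or among them, a call lost without sh4 replicate 2 or sh8 replicate 1. UFD1, an ERAD factor that was higher in sh4 by 0.59 (adjusted p = 0.0395), passed only without shlacZ replicate 1 when single libraries were left out (adjusted p of up to 0.237 otherwise). The melanocyte markers DCT, MLANA and PMEL were lower in sh4 by -2.30, -1.01 and -0.71 (adjusted p = 0.00231, 0.0142 and 0.0222). DCT passed without any single library, whereas MLANA and PMEL were lost without sh4 replicate 2 and without either sh8 library.

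Among the 4 knockdown libraries, none of the 10 genes had a library far from the others by Dixon's criterion (largest gap over range 0.801). The criterion was applied to both hairpins as 1 group and not to the 3 control libraries, so the low first control library was not examined by it.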

How the results depend on the processing

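Log2 fold changes of 100 single results were followed through 19 alternatives each, the GC and length fits having been added after seeing the data. These results were those of the 10 ER genes, GRASLND and the genes named from other lists by the size of their change. Of the 1900 values, 1677 kept direction and side of the threshold, 112 lost it, 72 gained it and 39 changed sign, all among results that had not passed. The cause of these changes was not tested. Where the depth was lowest, DNAJB9 and SDF2L1 had 87 to 430 reads per library, so counting error limits them more than the others.

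Leaving out 1 library at a time, the number of genes that passed ran from 66 to 1189 for knockdown against control (711 with all), 1407 to 4867 for sh4 (3464), 52 to 1597 for sh8 (451) and 144 to 1979 between the hairpins (1079). Of the 10 genes 0 to 4, 0 to 7 and 0 to 6 passed against control for both hairpins, sh4 and sh8. Without the variance trend 138, 59 and 476 genes passed for knockdown, sh8 and the hairpin comparison, and 0 of the 10 for knockdown. With 3 groups in the fit 2534 genes and 5 of the 10 passed for knockdown (DNAJC3, HERPUD1, UGGT1, DNAJB11 and HSP90B1), and with 2 groups only 299 genes passed for sh8. Of the 10 genes, upper quartile scaling gave 2 for knockdown and 2 for sh8, quantile normalization 2 for sh8 and 1 between the hairpins, and a pseudocount of 10 or a minimum mean of 50 gave 1 for sh8.

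The labels do not say whether same-numbered libraries belong together. The correlations of deviations between same-numbered libraries ran from -0.078 to 0.337. With 2 libraries in each hairpin group the deviations of a group mirror each other, so these values cannot decide whether the numbers pair the samples. With the replicate block, in which shlacZ replicate 3 has no partner, 42 genes and 0 of the 10 passed for knockdown, and 3 of the 10 for sh8, or 38, 0 and 1 with the GC and length trend removed as well. The block moved the median log2 fold change of the 10 genes from -0.20 to 0.03 in sh4 and from -0.16 to -0.01 in sh8. The planned edgeR and DESeq2 alternatives were not run.

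Values that changed sign, as log2 fold changes, were as follows. For XBP1 the knockdown value (-0.01) became 0.027 by quantile normalization, 0.036 by upper quartile scaling, 0.31 with the block and 0.32 with the block and the GC and length trend removed, and the sh4 value (-0.15) became 0.17 in both block fits. DNAJC3 between the hairpins became 0.035 (quantile), 0.0016 (limma-voom) and 0.014 (both GC and length fits), HSPA5 -0.0078 (both GC and length fits) and HSP90B1 0.14 (quantile). DNAJB9 in sh8 became -0.0017 with the GC and length trend removed, and QSOX1 in sh8 0.0020 (quantile), 0.019 (upper quartile) and 0.0053 (block). Over the libraries left out in turn, the hairpin difference ran from -0.16 to 0.19 for HSPA5, -0.15 to 0.088 for HSP90B1, -0.13 to 0.12 for DNAJC3, -0.11 to 0.45 for PDIA4, -0.089 to 0.68 for HERPUD1 and -0.54 to 0.0016 for XBP1. Against control it ran from -0.0048 to 0.37 (knockdown) and -0.25 to 0.26 (sh8) for DNAJB9, -0.52 to 0.038 (sh4) for PDIA4, -0.32 to 0.31 (knockdown), -0.46 to 0.17 (sh4) and -0.19 to 0.44 (sh8) for XBP1, and in sh8 -0.0080 to 0.29 for PPP1R15A and -0.26 to 0.19 for QSOX1.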
